A study of Mus musculus with 8 samples.

Results

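Layer 2/3 intratelencephalic neurons are glutamatergic cells of the upper cortical layers. They send axons to other areas of the same hemisphere and, through the corpus callosum, to the opposite one, and they receive much of their input from layer 4 and from other cortical areas. *Cux2*, a homeobox transcription factor, marks the upper layers, while *Rorb*, *Foxp2* with *Hs3st4*, and *Tshz2* mark layer 4, layer 6 corticothalamic and near-projecting cells respectively. Type I interferons act through a receptor made of IFNAR1 and IFNAR2, which signals by the kinases JAK1 and TYK2.

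Members were chosen by raw unique molecular identifiers (UMIs) of 8 genes, so the levels of these genes describe the selection. No test of a single one of them is reported as a result, though all but *Gad2* had enough UMIs to be counted among the genes tested. Counts and medians of gene lists below include *Cux2* and *Rorb* among the transcription factors and *Slc17a7* among the vesicle release genes. A nucleus was selected on at least 2 UMIs of *Slc17a7*, at most 1 of *Gad1* and *Gad2* together, at least 4 of *Cux2*, at most 2 of *Rorb*, at most 1 each of *Foxp2* and *Hs3st4*, and at most 2 of *Tshz2*. It also had 200 to 6000 genes, more than 1000 UMIs and less than 10% UMIs of mitochondrially encoded genes. The rule found 1420 nuclei among the 54343 that passed these quality limits (2.61%) and among 18582 glutamatergic nuclei, defined by *Slc17a7*, *Gad1* and *Gad2* alone (7.64%). The nuclei came from snap-frozen cortex of naive mice of strain C57BL/6J at 6 weeks of age. By their labels the mice were Wt, which is *Ifnar1*+/+, or *Ifnar1*-/-, with 2 females (F1, F2) and 2 males (M1, M2) of each genotype and 1 library per mouse. The comparison asks how the RNA of these neurons differs between the genotypes in young adults.

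The number of layer 2/3 nuclei was 219, 178, 192 and 182 in Wt F1, F2, M1 and M2 and 52, 125, 249 and 223 in *Ifnar1*-/- F1, F2, M1 and M2. *Ifnar1*-/- F1 stood apart, with the fewest layer 2/3 nuclei and the fewest UMIs in them. Summed over layer 2/3 nuclei, UMIs numbered 3103890, 2250319, 1753104 and 1939170 in the Wt libraries and 381915, 2011452, 2542818 and 2556393 in the *Ifnar1*-/- libraries. The library of *Ifnar1*-/- F1 as a whole had 8646 nuclei that passed the limits. Its 44063346 UMIs were the fewest, where the other libraries had 46076959 to 58423423. In its glutamatergic nuclei outside the rule the median was 6134 UMIs, against 7777 to 13715 in the other libraries. Between any pair of the 8 libraries, 3 to 29 barcodes of nuclei that passed were shared, and 0 barcodes of layer 2/3 nuclei. Doublets were kept in the main comparison, and Scrublet called 50 layer 2/3 nuclei (3.52%), against 4.37% of all nuclei that passed. The results with these nuclei removed are among the alternatives.

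The layer 2/3 nuclei carried the upper layer genes that the rule had not used. *Rasgrf2*, which encodes a Ras exchange factor found in upper layer neurons, had 258 ± 51.1 CPM (UMIs relative to all UMIs of the sum, scaled to a common total; SD, n = 8 libraries), against 108 ± 20.2 CPM in 628 *Rorb*-high glutamatergic nuclei and 17.6 ± 2.28 CPM in 3354 nuclei with *Foxp2* and *Hs3st4*. *Calb1*, which encodes the calcium buffer calbindin, had 58.9 ± 17.9 CPM against 29.6 ± 17.4 and 4.79 ± 2.49 CPM in the same order. Both genes were higher in layer 2/3 than in either comparison population in each of 8 libraries, as were *Cux1*, *Otof*, *Stard8*, *Lamp5*, *Wfs1* and *Mdga1*. *Otof* fell off most steeply toward *Rorb*-high nuclei among these 8 genes, at 66.3 CPM against 9.45, while *Slc30a3*, which encodes the synaptic zinc transporter of intratelencephalic cells, was at a like level in both (108 and 103 CPM) and at 12.9 CPM in nuclei with *Foxp2* and *Hs3st4*. The 3 populations were themselves set apart by related genes, so these levels are a description with no test.

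**Figure D1:**
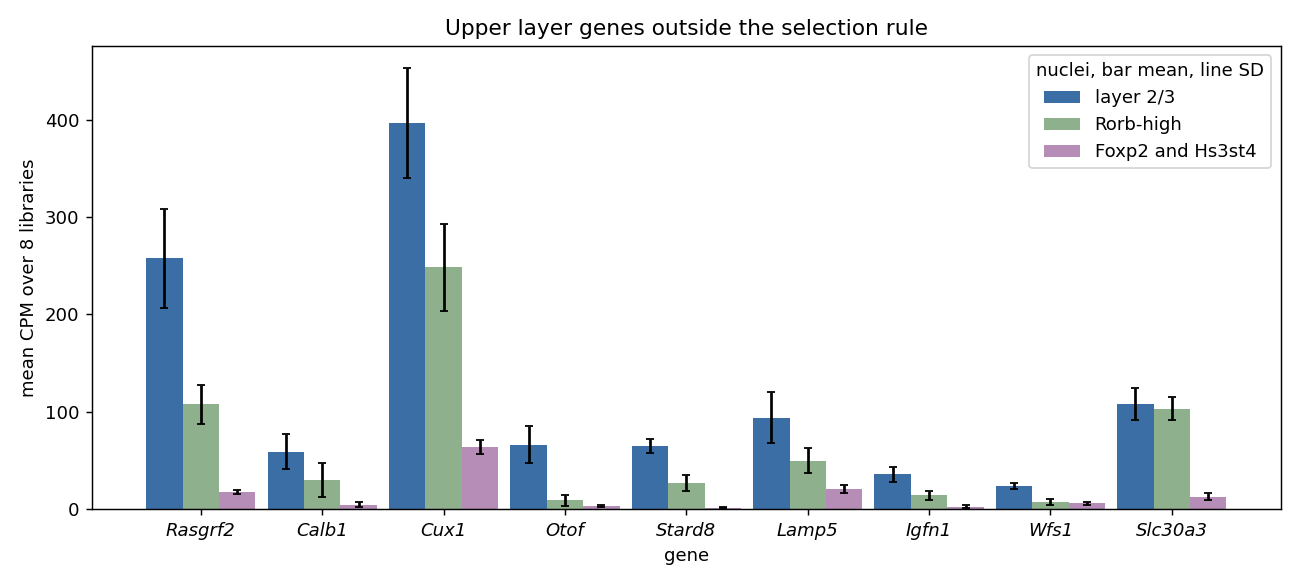
Mean CPM over 8 libraries (bars, with SD as lines) of 9 upper layer and intratelencephalic genes outside the selection rule, in layer 2/3, Rorb-high, and Foxp2 and Hs3st4 nuclei. Rasgrf2 stood at 258, 108 and 17.6 CPM in this order, while Slc30a3 was near the same level in the first pair of populations.

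Per nucleus, 82.0% of layer 2/3 nuclei had a *Rasgrf2* UMI and 40.8% a *Calb1* UMI. In 3701 oligodendrocyte-like nuclei, which should lack both, the shares were 3.51% and 3.59%, at median depths per library of 1647 to 3016 UMIs, against 6206 to 16027 UMIs in layer 2/3. After each nucleus was thinned to 1500 UMIs, which left out 387 oligodendrocyte-like and 0 layer 2/3 nuclei, the shares were 28.9% and 9.30% in layer 2/3 and 1.96% and 2.17% in the oligodendrocyte-like nuclei. Both genes thus lay above the background share at equal depth.

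Markers of other cortical cells were present in the layer 2/3 sums at differing levels. The endothelial gene *Cldn5* had 1 UMI, the layer 6b genes *Nxph4* and *Cplx3* had 0.0981 and 0.661 CPM, the corticothalamic gene *Syt6* had 1.83 CPM and the layer 5 gene *Fezf2* 1.44 CPM. Other deep layer genes were higher, with the corticothalamic gene *Tle4* at 34.3 CPM and the layer 5 genes *Bcl11b*, *Etv1* and *Deptor* at 26.1, 21.9 and 19.9 CPM. Among non-neuronal markers those of myelin were the most abundant, with *Mbp* at 83.9 CPM, against 4147 CPM in oligodendrocyte-like nuclei. The 5 microglial markers were all detected, led by *P2ry12* at 63.8 CPM, a level above the 32.1 CPM of oligodendrocyte-like nuclei. *P2ry12* lies within *Med12l* on the opposite strand, so its UMIs are of uncertain origin. *Sst*, a neuropeptide gene of interneurons, had 31.8 CPM on average and 124 CPM in Wt M2.

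Levels at the edges of the rule differed between *Cux2* and *Rorb*. The 366 members with 4 *Cux2* UMIs, just inside the threshold, had 241 CPM of *Rasgrf2* and 68.4 CPM of *Otof*. The 481 nuclei with 3 *Cux2* UMIs, just outside it, had 217 and 64.5 CPM. The 73 members with 2 *Rorb* UMIs had 268 CPM of *Rasgrf2*, 59.7 CPM of *Calb1* and 22.9 CPM of *Otof*, and the 32 nuclei with 3 *Rorb* UMIs, just outside, had 205, 16.2 and 35.1 CPM among 370479 UMIs of all genes. *Rasgrf2* and *Otof* differed little across the *Cux2* threshold. Across the *Rorb* threshold *Rasgrf2* and *Calb1* were lower outside and *Otof* higher, from few UMIs of *Calb1* and *Otof*, and *Otof* was already lower in members with 2 *Rorb* UMIs than in the 1215 with none (72.0 CPM).

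The members varied among themselves, in splits picked after their values were seen. Their UMIs ranged from 4071 to 26283 with a median of 10995, and 153 of 1420 had no UMI of *Rasgrf2*, *Calb1* or *Otof*, while 259 had all 3. Nuclei with an *Otof* UMI had more *Rasgrf2* than nuclei without (303 against 220.1 CPM) and more *Calb1* (68.9 against 51.0 CPM), in each of 8 libraries. Nuclei with a UMI of *Cdh13*, which encodes a cadherin, had more *Otof* (90.6 against 37.3 CPM), again in each of 8 libraries. *Chrm2*, which encodes a muscarinic acetylcholine receptor, went the other way. The 190 nuclei with a *Chrm2* UMI had less *Otof* (35.2 against 73.1 CPM) in each of 8 libraries and less *Calb1* (37.8 against 61.9 CPM) in 7 of 8. Median depth was 11942 UMIs in nuclei with *Otof* and 10312 in those without, and 11012 and 10986 for *Chrm2*. These splits are descriptions of single nuclei and carry no test.

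The share of layer 2/3 nuclei among glutamatergic nuclei was 10.1%, 8.48%, 6.77% and 7.30% in the Wt libraries and 2.78%, 8.18%, 7.75% and 9.35% in the *Ifnar1*-/- libraries. *Ifnar1*-/- F1 lay below all others, with a Wilson 95% interval of 2.12% to 3.62%, and the remaining 7 libraries overlapped between genotypes. The means were 8.18% ± 1.49 in Wt and 7.01% ± 2.90 in *Ifnar1*-/- (SD, n = 4; two-sided exact permutation p = 0.629, where the smallest possible is 0.0286). Without *Ifnar1*-/- F1 the difference turned from -1.16 to 0.251 percentage points (exact permutation p = 0.83). Within sexes, the mean went from 9.31% in Wt to 5.48% in *Ifnar1*-/- females and from 7.04% to 8.55% in males.

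The rule counts raw UMIs, so the depth of each nucleus bears on whether it is a member. Median UMIs per layer 2/3 nucleus were 13642, 12321, 8469 and 10222 in Wt and 6206, 16027, 9796 and 10928 in *Ifnar1*-/-, with *Ifnar1*-/- F1 the shallowest and *Ifnar1*-/- F2 the deepest. The genotype means were 11164 ± 2282 and 10739 ± 4059.6 (SD, n = 4; exact permutation p = 0.857). Without *Ifnar1*-/- F1 this difference turned from -424 to 1087 UMIs, and without Wt F1 to 402 UMIs. With every nucleus thinned to 4000 UMIs before the rule was applied, the shares were 2.64%, 2.22%, 1.35% and 1.53% in Wt and 1.88%, 1.83%, 1.85% and 1.99% in *Ifnar1*-/-. At this equal depth *Ifnar1*-/- F1 lay among the other *Ifnar1*-/- libraries. Glutamatergic nuclei under 4000 UMIs were left out, 148 in *Ifnar1*-/- F1 and 7 to 78 in each other library, and the thinned shares rest on 10 to 32 nuclei per library.

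**Figure D2:**
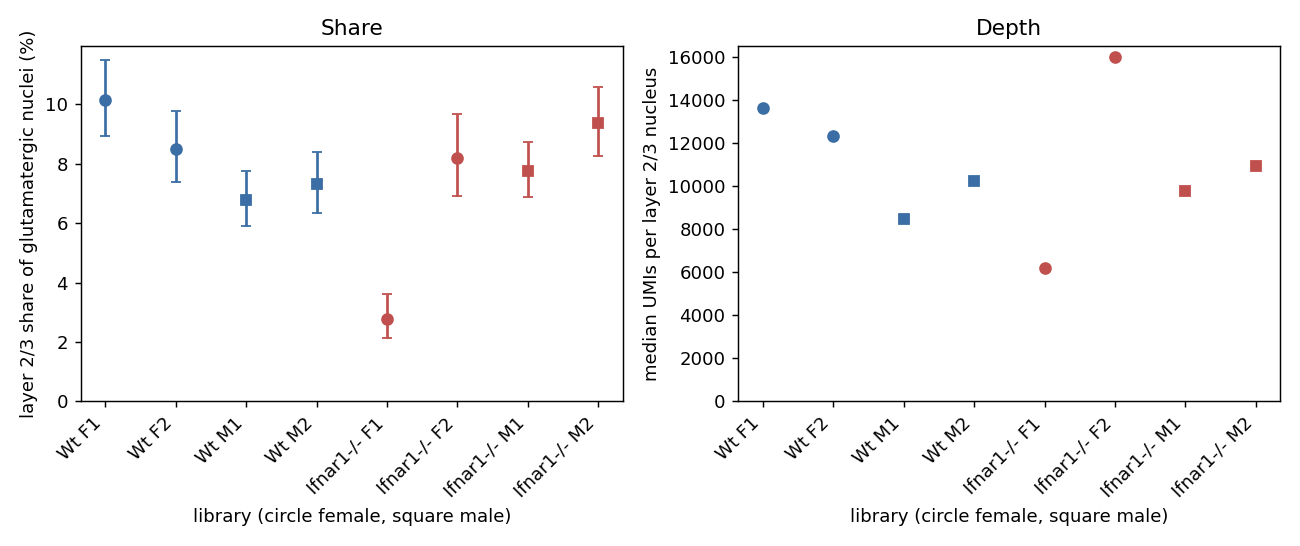
Share of layer 2/3 nuclei among glutamatergic nuclei in percent (left, with Wilson 95% intervals) and median UMIs per layer 2/3 nucleus (right) for each of the 8 libraries, Wt in blue and Ifnar1-/- in red, females as circles and males as squares. Ifnar1-/- F1 was lowest in both, at 2.78% and 6206 UMIs.

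*Ifnar1* (ENSMUSG00000022967, chromosome 16 from 91485238 to 91507441, mm10) was detected in layer 2/3 nuclei of every library. Its level, on the TMM-scaled CPM used from here on for tested genes, was 22.7, 20.1, 18.2 and 18.8 CPM in Wt F1, F2, M1 and M2 and 8.58, 13.4, 15.1 and 20.8 CPM in the *Ifnar1*-/- libraries in the same order. *Ifnar1*-/- F1 was lowest and *Ifnar1*-/- M2 lay within the Wt range, so the genotypes overlapped. The difference did not pass the test, with a log2 fold change of -0.35 (SE 0.22, edgeR adjusted p = 1). On leaving out each library the log2 fold change of *Ifnar1* ranged from -0.54 to -0.23. A UMI is assigned to the whole gene, not to an exon, so these counts do not check the deletion. *Ifnar2*, the partner subunit, had 10.1 ± 2.00 CPM in Wt and 8.40 ± 2.06 CPM in *Ifnar1*-/- (SD, n = 4), a log2 fold change of -0.15 (SE 0.27, edgeR adjusted p = 1). On leaving out each library the log2 fold change of *Ifnar2* ranged from -0.26 to -0.021. All p-values named adjusted are from the quasi-likelihood F test with the Benjamini-Hochberg method, over all genes tested. SE stands for the standard error of the log2 fold change. Sums over gene lists or markers are of CPM without TMM scaling.

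Of 11594 genes tested in layer 2/3 nuclei, 9 passed the test between genotypes (0.0776%), 4 higher (0.0345%) and 5 lower (0.0431%) in *Ifnar1*-/-. At an unadjusted p under 0.05 there were 417 genes, and DESeq2 called 10. Without *Ifnar1*-/- F1, 6 genes were called, all among the 9, and *Igfbp4*, *Gm26848* and *Eef1a1* were not. Without the sex term 5 genes were called. With no filter on low counts 22607 genes were tested and 50 called, 32 higher and 18 lower, with all 9 among them. Of the 9 genes, 5 are predicted transcripts with a Gm symbol, and none was on the lists of interferon genes.

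*Gon4l* (ENSMUSG00000054199, chromosome 3 from 88835231 to 88910103), which encodes a nuclear regulator of transcription, stood at 97.4, 95.5, 124 and 114 CPM in Wt F1, F2, M1 and M2 and 209, 201, 189.6 and 193 CPM in the *Ifnar1*-/- libraries in the same order. The *Ifnar1*-/- libraries were all above the Wt libraries. The rise had a log2 fold change of 0.87 (SE 0.11, edgeR adjusted p = 0.00210). *Gm43713* (ENSMUSG00000106218, chromosome 3 from 88845025 to 88900001) is annotated as antisense and lies inside *Gon4l* on the opposite strand. It stood at 89.2, 100.2, 58.6 and 53.9 CPM in Wt F1, F2, M1 and M2 and 358, 225, 209.6 and 223 CPM in the *Ifnar1*-/- libraries in the same order. Again no *Ifnar1*-/- library reached down to Wt, and *Ifnar1*-/- F1 was the highest. The rise had a log2 fold change of 1.75 (SE 0.14, edgeR adjusted p = 3.49e-05). Because they overlap, UMIs of the pair could not be told apart by position alone, and the assignment of either is uncertain. Both genes lie on chromosome 3, as does *Prss48* (ENSMUSG00000049013, chromosome 3 from 85993810 to 86002491), a serine protease gene, which was lower at 27.0, 29.5, 60.2 and 28.7 CPM in Wt F1, F2, M1 and M2 and 5.72, 7.24, 2.64 and 6.68 CPM in the *Ifnar1*-/- libraries in the same order. The groups did not overlap, and Wt M1 was well above the other Wt libraries. The fall had a log2 fold change of -2.77 (SE 0.34, edgeR adjusted p = 0.00183).

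*Gm15446* (ENSMUSG00000090015, chromosome 5 from 109923400 to 109943936) is annotated as protein coding without a known role. It stood at 29.6, 27.6, 29.8 and 23.7 CPM in Wt F1, F2, M1 and M2 and 0, 4.14, 4.15 and 3.15 CPM in the *Ifnar1*-/- libraries in the same order. Every Wt library was above every *Ifnar1*-/- library, and *Ifnar1*-/- F1 had 0 UMIs. The fall had a log2 fold change of -2.92 (SE 0.27, edgeR adjusted p = 9.97e-05). *Gm12576* (ENSMUSG00000085235, chromosome 11 from 83817682 to 83849493), a long non-coding RNA, stood at 14.5, 7.96, 11.1 and 14.8 CPM in Wt F1, F2, M1 and M2 and had 0 UMIs in each *Ifnar1*-/- library. Its 111 UMIs in Wt against 0 in *Ifnar1*-/-, with a floor of 3 UMIs over the group, made it at least 30.6-fold lower (edgeR adjusted p = 0.00164). *Gm15965* (ENSMUSG00000085279, chromosome 16 from 90983907 to 90987237), annotated as antisense to *Synj1*, lies on the same chromosome as *Ifnar1*, with 0.501 Mb between the starts. It stood at 43.8, 51.5, 64.1 and 66.7 CPM in Wt F1, F2, M1 and M2 and 22.9, 26.9, 24.9 and 19.7 CPM in the *Ifnar1*-/- libraries in the same order. The groups did not overlap, and the fall had a log2 fold change of -1.27 (SE 0.18, edgeR adjusted p = 0.00563). Without the sex term its adjusted p from edgeR was 0.0669, within a range of 3.52e-08 to 0.0669 over the alternatives.

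*Igfbp4* (ENSMUSG00000017493, chromosome 11 from 99041244 to 99054392) encodes a secreted binding protein of insulin-like growth factors. It stood at 7.57, 8.43, 8.84 and 17.3 CPM in Wt F1, F2, M1 and M2 and 31.5, 22.7, 38.5 and 28.7 CPM in the *Ifnar1*-/- libraries in the same order. All *Ifnar1*-/- libraries were above all Wt libraries, of which Wt M2 was the highest. The rise had a log2 fold change of 1.46 (SE 0.23, edgeR adjusted p = 0.0232). The edgeR adjusted p was 0.0548 with the replicate label as a block, 0.356 without the sex term and 0.0612 without *Ifnar1*-/- F1. It also passed 0.05 no longer without Wt F1, Wt F2, Wt M1, *Ifnar1*-/- F2 or *Ifnar1*-/- M1, in a range of 8.70e-07 to 0.356 over all alternatives, DESeq2 included, as in all such ranges here. *Gm26848* (ENSMUSG00000097723, chromosome 17 from 6314199 to 6493180), a long non-coding RNA that overlaps *Dynlt1b* on the same strand, was the most abundant of the 9, at 1477, 1954, 1383 and 1605 CPM in Wt F1, F2, M1 and M2 and 2543, 2356, 2328 and 2394 CPM in the *Ifnar1*-/- libraries in the same order. The groups did not overlap. The rise had a log2 fold change of 0.59 (SE 0.09, edgeR adjusted p = 0.0239), and its adjusted p from edgeR was 0.0846 without *Ifnar1*-/- F1, in a range of 1.10e-07 to 0.445. It was lost too at *Cux2* of at least 6 UMIs, without the sex term, and without Wt F1, Wt M1, Wt M2, *Ifnar1*-/- M1 or *Ifnar1*-/- M2.

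*Eef1a1* (ENSMUSG00000037742, chromosome 9 from 78478449 to 78489151), which encodes a translation elongation factor, was the least stable of the 9. It stood at 53.3, 73.5, 145 and 134 CPM in Wt F1, F2, M1 and M2 and 25.7, 25.8, 79.7 and 90.8 CPM in the *Ifnar1*-/- libraries in the same order. Females were lower than males in both genotypes, and the genotypes overlapped until sex was taken into account. Between genotypes the log2 ratio of mean CPM was -1.30 between females and -0.71 between males. The fall had a log2 fold change of -0.91 (SE 0.15, edgeR adjusted p = 0.0319). It was lost without *Ifnar1*-/- F1 (edgeR adjusted p = 0.0846) and without each other library except *Ifnar1*-/- M2, at *Cux2* of at least 6 UMIs and without the sex term, in a range of 1.06e-05 to 1 over the alternatives. The gene has many pseudogene copies, between which UMIs could be split, so its count is uncertain.

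**Figure D3:**
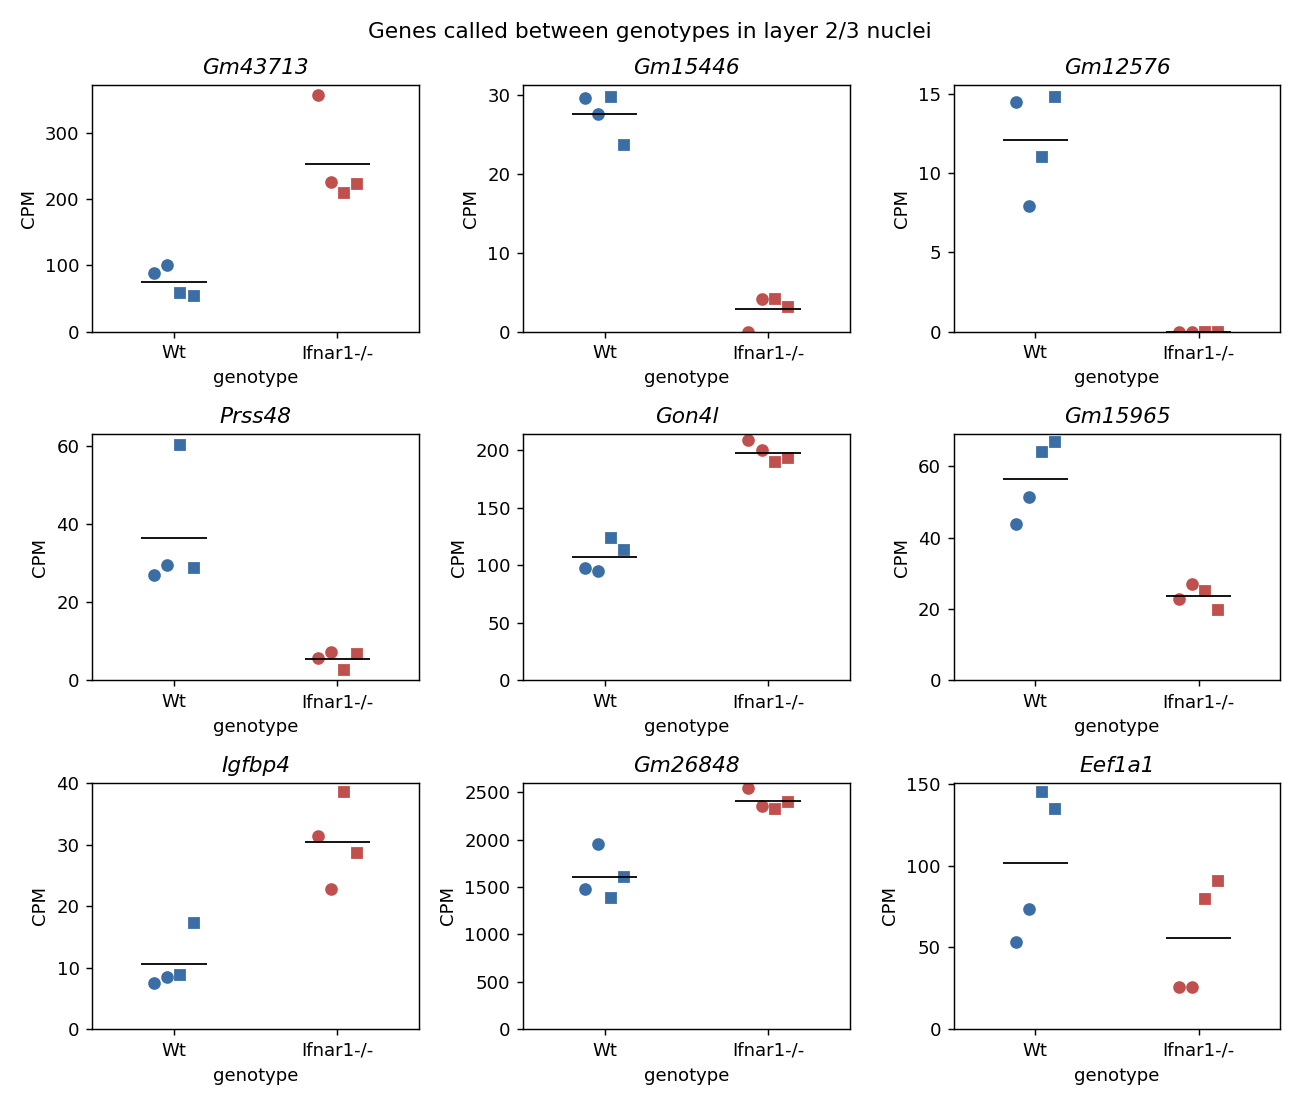
CPM of the 9 genes called between genotypes in layer 2/3 nuclei, 1 point per library (circles female, squares male, Wt in blue, Ifnar1-/- in red) with the group mean as a line, on linear axes from 0. The genotypes did not overlap in 8 panels and overlapped for Eef1a1, and Gm12576 was at 0 in each Ifnar1-/- library.

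The other glutamatergic nuclei came from the same mice, so values of the 9 genes in them are not independent. They were all 17162 glutamatergic nuclei outside the rule. Among them, 481 with 3 *Cux2* UMIs and 502 with 2 met the rest of the rule. *Rasgrf2* stood at 217 and 197 CPM in these, near the 241 CPM of members with 4. A comparison with the other nuclei can therefore miss a difference that such nuclei share with members. On CPM without TMM scaling, *Gon4l* had 108 ± 17.9 CPM in Wt and 193 ± 2.73 CPM in *Ifnar1*-/- in layer 2/3 nuclei, and 99.2 ± 9.91 CPM in Wt and 202 ± 5.17 CPM in *Ifnar1*-/- in the other glutamatergic nuclei (SD, n = 4). *Gm15446* had 27.7 ± 2.72 CPM in Wt and 2.86 ± 1.97 CPM in *Ifnar1*-/- in layer 2/3 nuclei, and 27.9 ± 2.51 and 4.48 ± 0.638 CPM in the others. *Igfbp4* had 10.6 ± 4.99 CPM in Wt and 29.8 ± 7.57 CPM in *Ifnar1*-/- in layer 2/3 nuclei, and 14.8 ± 4.62 CPM in Wt and 22.4 ± 3.20 CPM in *Ifnar1*-/- in the others. Its difference in layer 2/3 exceeded that in the others by log2 0.88, which did not pass (SE 0.19, edgeR adjusted p = 0.274). *Gm12576*, at 0 UMIs in *Ifnar1*-/- layer 2/3 nuclei, had 38 UMIs in the other *Ifnar1*-/- glutamatergic nuclei against 1536 in Wt. A test of whether the genotype difference itself differed called 0 of 15758 genes between layer 2/3 and other glutamatergic nuclei (0%; edgeR, 602 at an unadjusted p under 0.05, and 0 by DESeq2). Without Wt M1 it called 4 and without *Ifnar1*-/- F1 it called 2. With no filter on low counts it also called 2. Against *Rorb*-high nuclei it called 0 of 10431 genes (0%; edgeR, 446 at an unadjusted p under 0.05, and 0 by DESeq2), with 2 called without *Ifnar1*-/- F2 and 1 each without Wt F1 or Wt F2, and 5 with no filter on low counts.

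Against nuclei with *Foxp2* and *Hs3st4*, the genotype difference differed for 5 of 13144 genes (0.0380%), with 8 called without Wt M1 and 20 with no filter on low counts (15 higher and 5 lower). *Cntfr* (ENSMUSG00000028444, chromosome 4 from 41657498 to 41697089) encodes the receptor subunit for ciliary neurotrophic factor. It stood at 76.0, 66.5, 62.4 and 60.8 CPM in Wt F1, F2, M1 and M2 and 54.4, 40.8, 35.1 and 42.5 CPM in the *Ifnar1*-/- libraries in the same order in layer 2/3 nuclei. All *Ifnar1*-/- libraries were below all Wt libraries, though the difference within layer 2/3 did not pass the test, with a log2 fold change of -0.68 (SE 0.14, edgeR adjusted p = 0.198). On CPM without TMM scaling it had 66.4 ± 5.41 CPM in Wt and 42.0 ± 5.69 CPM in *Ifnar1*-/- in layer 2/3, and 113 ± 13.2 CPM in Wt and 29.0 ± 7.51 CPM in *Ifnar1*-/- in nuclei with *Foxp2* and *Hs3st4* (SD, n = 4). The difference in layer 2/3 minus that in the other population was log2 1.15 (SE 0.16, edgeR adjusted p = 2.74e-04), so the gap was smaller in layer 2/3. It was called in every alternative, with a highest edgeR adjusted p of 0.00485.

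*Igfbp4* went the other way. On the same scale it had 10.6 ± 4.99 CPM in Wt and 29.8 ± 7.57 CPM in *Ifnar1*-/- in layer 2/3, and 34.7 ± 11.8 CPM in Wt and 47.6 ± 7.31 CPM in *Ifnar1*-/- (SD, n = 4) in nuclei with *Foxp2* and *Hs3st4*, and its difference in layer 2/3 exceeded that by log2 1.06 (SE 0.19, edgeR adjusted p = 0.0166). DESeq2 did not call it (adjusted p = 0.196), and the call was lost at *Cux2* of at least 6 UMIs and without Wt F1, Wt M1, Wt M2, *Ifnar1*-/- M1 or *Ifnar1*-/- M2, in a range of 0.00160 to 0.228 over its alternatives. The 3 other genes, *Gm12394* (ENSMUSG00000078722, chromosome 4 from 42781928 to 42856771), *Gm2163* (ENSMUSG00000095779, chromosome 4 from 42466752 to 42589938) and *4930578G10Rik* (ENSMUSG00000054885, chromosome 4 from 42735545 to 42846248), lie close together on chromosome 4, as does *Cntfr*. *Gm12394* had 249 ± 101 CPM in Wt and 395 ± 182 CPM in *Ifnar1*-/- in layer 2/3 and 196 ± 66.0 CPM in Wt and 535 ± 249 CPM in *Ifnar1*-/- in the other population (SD, n = 4). *Gm2163* rose on average from 492 CPM in Wt to 581 CPM in *Ifnar1*-/- in layer 2/3 and from 436 to 829 CPM in the other population. *4930578G10Rik* rose from 347 to 441.5 CPM and from 296 to 622 CPM in the same order. The difference in layer 2/3 minus that in the other population was log2 -0.74 (SE 0.08, edgeR adjusted p = 9.02e-06) for *Gm12394*, log2 -0.67 (SE 0.08, edgeR adjusted p = 9.02e-06) for *Gm2163* and log2 -0.73 (SE 0.09, edgeR adjusted p = 2.48e-05) for *4930578G10Rik*. The negative values thus stand for a smaller rise in layer 2/3, where the genotypes overlapped for all 3 genes. *Gm12394* and *4930578G10Rik* overlap on opposite strands and the region holds similar gene copies, so how their UMIs were assigned is uncertain.

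No gene of the interferon lists passed the test between genotypes, where 0.0776% of all genes did, so 0 calls among so few genes sets these lists apart in no way. Of 19 genes of interferon receptors and signalling, 13 had enough UMIs to test, with 6 higher and 7 lower in *Ifnar1*-/- and a median log2 fold change of -0.02, against -0.0012 over all genes. The most abundant were *Irf2* and *Jak1*, with log2 fold changes of 0.05 ± 0.11 and -0.09 ± 0.14 (standard error). Of 60 interferon response genes, 58 were among the measured genes and 8 could be tested, with 4 higher and 4 lower and a median of 0.09. The 50 that could not be tested held 354 UMIs when Wt libraries were added up, and 300 for *Ifnar1*-/-, out of totals of 9046483 and 7492578 UMIs, and whether they differ was not tested in the main comparison. *Adar*, an RNA editing enzyme gene, had 111 ± 11.5 CPM in Wt and 108 ± 11.3 CPM in *Ifnar1*-/- (SD, n = 4) and a log2 fold change of -0.01 (SE 0.12, edgeR adjusted p = 1). *Herc6*, a ubiquitin ligase gene, had 29.7 ± 3.52 CPM in Wt and 37.9 ± 5.01 CPM in *Ifnar1*-/- (SD, n = 4) and a log2 fold change of 0.32 (SE 0.17, edgeR adjusted p = 1). Summed over the response genes, the level was 246, 227, 254 and 244 CPM in Wt and 204, 246, 261 and 257 CPM in *Ifnar1*-/-, and the groups overlapped.

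Synaptic gene lists gave 0 calls between genotypes by edgeR, which at 0.0776% called over all genes says little about lists of this size. The ionotropic glutamate receptors had 8 higher and 8 lower of 16 tested, median log2 -0.0011. *Gria2*, which sets the calcium permeability of AMPA receptors, had a log2 fold change of 0.17 ± 0.09 (standard error) and *Grin2b*, an NMDA receptor subunit, 0.05 ± 0.08. The metabotropic receptors and Homer scaffolds had 5 higher and 4 lower of 9 tested, median log2 0.04, with *Grm7* at 0.13 ± 0.08 and *Grm5* at 0.04 ± 0.08. AMPA receptor auxiliary and scaffold genes had 8 higher and 15 lower of 23 tested, median log2 -0.05, with *Dlg2* at 0.05 ± 0.07 and *Dlg1* at 0.01 ± 0.09. *Cacng4*, an auxiliary subunit with 18.8, 14.5, 12.2 and 14.3 CPM in Wt and 0, 9.82, 11.3 and 10.6 CPM in *Ifnar1*-/-, had the smallest unadjusted p of its list (0.0630, edgeR). Its groups did not overlap, and *Ifnar1*-/- F1 was at 0.

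The GABA A receptor subunits, which mediate fast inhibition, and the scaffold *Gphn* had 12 higher and 1 lower of 13 tested, median log2 0.11. *Gabrb1* stood at 0.00080 ± 0.09 (log2, standard error) and *Gabra2* at 0.20 ± 0.11. Vesicle release and synaptic adhesion genes had 22 higher and 11 lower of 33 tested, median log2 0.04, with *Lrrtm4* at -0.02 ± 0.08 and the neurexin gene *Nrxn3* at 0.21 ± 0.10. These counts include *Slc17a7*, whose UMIs the rule limited. Sodium, potassium and calcium channels had 20 higher and 14 lower of 34 tested, median log2 0.04, with *Kcnq5*, a subunit of the M-type potassium channel, at 0.21 ± 0.10 and *Kcnh7* at 0.13 ± 0.09. Axon guidance and adhesion genes had 23 higher and 8 lower of 31 tested, median log2 0.11. Like the channels, these genes had 0 calls between genotypes by edgeR, beside 0.0776% over all genes. Among them *Sema6d*, a transmembrane semaphorin gene, had 151 ± 28.3 CPM in Wt and 221 ± 44.6 CPM in *Ifnar1*-/- (SD, n = 4) and a log2 fold change of 0.52 (SE 0.14, edgeR adjusted p = 1); with no filter on low counts it passed, at an adjusted p of 0.0384, in a range of 0.0384 to 1 over its alternatives. *Epha6* and *Cntn4*, the most abundant of that list, stood at 0.08 ± 0.10 and 0.23 ± 0.10.

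The lists of layer identity and neuronal activity genes had 0 calls between genotypes by edgeR as well, beside 0.0776% over all genes. Upper layer and intratelencephalic transcription factors had 9 higher and 9 lower of 18 tested, median log2 -0.01 between genotypes, with *Mef2c* at 0.12 ± 0.12 (log2, standard error), *Tcf4* at -0.03 ± 0.10 and *Zbtb20* at 0.25 ± 0.15. These counts include *Cux2* and *Rorb*, whose UMIs the rule limited. The sublayer genes had 8 higher and 5 lower of 13 tested, median log2 0.08, with *Cntn5*, a contactin gene, at 0.22 ± 0.09 and an unadjusted edgeR p of 0.0322. Activity-induced genes had 7 higher and 17 lower of 24 tested, median log2 -0.12. *Homer1*, *Nr4a1* and *Egr1* stood at -0.09 ± 0.15, -0.05 ± 0.12 and -0.34 ± 0.22.

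Mitochondrial genes and genes of familial Parkinson disease were examined because the study concerns a Parkinson-like disorder. The mitochondrially encoded genes had 10 higher and 2 lower of 12 tested, median log2 0.37 between genotypes, and 0 passed the test by edgeR, beside 0.0776% over all genes. *mt-Co3*, a subunit of complex IV, stood at 292, 411, 828 and 1165 CPM in Wt F1, F2, M1 and M2 and 612, 234, 882 and 1708 CPM in the *Ifnar1*-/- libraries in the same order. *Ifnar1*-/- M2 was the highest library and *Ifnar1*-/- F2 the lowest, so the spread within *Ifnar1*-/- exceeded the gap between genotypes, with a log2 fold change of 0.28 (SE 0.24, edgeR adjusted p = 1). *mt-Atp6* had 0.38 ± 0.31 and *mt-Atp8* 1.20 ± 0.48 (log2, standard error). On leaving out each library these values ranged from 0.0047 to 0.53 for *mt-Co3*, -0.10 to 0.70 for *mt-Atp6* and 0.62 to 1.66 for *mt-Atp8*. Nuclear oxidative phosphorylation genes had 41 higher and 32 lower of 73 tested, median log2 0.02, with *Ndufs4* at 0.02 ± 0.12, *Atp5o* at 0.19 ± 0.13 and *Cox7c* at 0.32 ± 0.18. Familial Parkinson disease genes had 6 higher and 11 lower of 17 tested, median log2 -0.02, with *Dnajc6*, which uncoats clathrin vesicles, at -0.04 ± 0.10, *Gigyf2* at 0.02 ± 0.10 and the phospholipase gene *Pla2g6* at 0.55 ± 0.26. Heat shock genes had 4 higher and 6 lower of 10 tested, median log2 -0.13, with the chaperones *Hsp90b1* and *Hspa5* at 0.19 ± 0.17 and -0.13 ± 0.24.

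A list of 20 genes taken from earlier results of these same data is not independent evidence. Of these, 12 could be tested in layer 2/3 nuclei and 5 passed (41.7%, against 0.0776% over all genes), namely *Gm43713*, *Gon4l*, *Gm12576*, *Gm15446* and *Gm15965*. *Prss48*, *Igfbp4*, *Gm26848* and *Eef1a1* were not on it. The other 7 tested members, *Pkd1l2*, *Tpm3-rs7*, *Grik1*, *Gm16000*, *Esrrg*, *Hpgd* and *Irf9*, did not pass. Picked after their values were seen, *Pkd1l2* had 67 UMIs in Wt and 16 in *Ifnar1*-/-, and *Tpm3-rs7* 165 and 62. Among the 8 that could not be tested, *Ifi27* had 15 and 26 UMIs and *Lgals3bp* 15 and 5.

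Sex separated the layer 2/3 sums far more than genotype. Between males and females 1692 of 11594 genes passed (14.6%), 1023 higher in males (8.82%) and 669 lower (5.77%), and DESeq2 called 1359. The count was 1593 without *Ifnar1*-/- F1, 899 without Wt M2, 939 without Wt F2 and 1003 without *Ifnar1*-/- M1. Of 10 X and Y linked genes tested, 4 were called higher and 4 lower in males. *Eif2s3x* and *Ddx3x* did not pass (edgeR adjusted p = 0.163 and 0.857). *Xist* and the Y-linked genes followed the labels. *Xist*, the X-inactivation RNA, had 1019 ± 147 CPM in females and 0.484 ± 0.409 CPM in males (SD, n = 4), and *Tsix*, which overlaps it on the opposite strand, 416 and 0.676 CPM. The Y-linked genes *Uty*, *Kdm5d*, *Eif2s3y* and *Ddx3y* had 98.7, 37.2, 113 and 35.2 CPM in males and 2.52, 0.411, 0 and 0.997 CPM in females.

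The other 4 of the 10 genes with the smallest p between sexes were autosomal and higher in males. *Crebzf*, a transcription factor gene, stood at 36.5, 26.7, 34.3 and 26.9 CPM in the females Wt F1, Wt F2, *Ifnar1*-/- F1 and *Ifnar1*-/- F2 and 139.8, 146, 159 and 119 CPM in the males Wt M1, Wt M2, *Ifnar1*-/- M1 and *Ifnar1*-/- M2. Every male library was above every female one, by log2 2.21 (SE 0.15, edgeR adjusted p = 3.83e-07). *Rab11fip2*, an endosome recycling gene, rose by log2 1.88 (SE 0.14, edgeR adjusted p = 8.63e-07), *Gm27032*, which overlaps a microRNA gene, by log2 3.27 (SE 0.25, edgeR adjusted p = 1.28e-06), and *Ssbp4* by log2 3.49 (SE 0.29, edgeR adjusted p = 3.66e-06). *Ifnar1*-/- M2 had the lowest level of the males for *Gm27032* and *Ssbp4*, at 63.7 and 72.7 CPM.

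Gene lists differed in direction between sexes, against a median of 0.0020 over all genes, and the examples named in this account of sex were picked after their values were seen unless they are above. Of the activity-induced genes, 12 of 24 were called higher in males and 0 called lower, against 8.82% and 5.77% over all genes, with a median log2 of 0.92. The immediate early gene *Egr4* rose by log2 4.25 (SE 0.51, edgeR adjusted p = 8.58e-05), *Jund* by log2 2.66 (SE 0.32, edgeR adjusted p = 7.02e-05) and *Junb* by log2 1.71 (SE 0.25, edgeR adjusted p = 4.26e-04). *Vgf*, a neuropeptide precursor gene, stood at 22.0, 16.9, 22.9 and 21.2 CPM in the females Wt F1, Wt F2, *Ifnar1*-/- F1 and *Ifnar1*-/- F2 and 59.7, 86.5, 97.8 and 61.3 CPM in the males Wt M1, Wt M2, *Ifnar1*-/- M1 and *Ifnar1*-/- M2. The sexes did not overlap, and the rise was log2 1.89 (SE 0.20, edgeR adjusted p = 2.47e-05). Summed over the list, the level was 733, 755, 668 and 620.0 CPM in the females and 1063, 1308, 1276 and 1065 CPM in the males, and the sexes did not overlap.

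Over all genes 8.82% were called higher and 5.77% lower in males. Mitochondrially encoded genes called between sexes numbered 10 higher and 0 lower of 12, median log2 1.55, and nuclear oxidative phosphorylation genes 32 higher and 1 lower of 73, median log2 0.72. *Atp5a1*, a subunit gene of ATP synthase, rose by log2 1.74 (SE 0.16, edgeR adjusted p = 1.48e-05) and *Cox8a* by log2 2.17 (SE 0.33, edgeR adjusted p = 7.01e-04), while *Atp5o*, whose annotated span overlaps *Donson* and *Cryzl1* so that its UMIs are uncertain, fell by 0.80 on the log2 scale (edgeR adjusted p = 0.00150). Heat shock genes had 2 higher and 0 lower of 10, median log2 0.52, with *Hspa8* at log2 0.99 (SE 0.22, edgeR adjusted p = 0.00791). Ionotropic glutamate receptors were called 1 higher and 5 lower of 16, median log2 -0.20. *Gria2* was lower in males, at log2 -0.50 (SE 0.09, edgeR adjusted p = 0.00264), as was *Grik4*, at log2 -0.68 (SE 0.12, edgeR adjusted p = 0.00195), and *Grik1* was higher, at log2 1.92 (SE 0.32, edgeR adjusted p = 0.00144). Channels had 1 higher and 6 lower of 34, median log2 -0.19, with *Cacna1c* at log2 -0.48 (SE 0.09, edgeR adjusted p = 0.00242) and *Hcn2*, a pacemaker channel gene, at log2 1.90 (SE 0.19, edgeR adjusted p = 1.71e-05). Axon guidance and adhesion genes had 1 higher and 6 lower of 31, median log2 -0.09, with *Efna5* at log2 -0.51 (SE 0.09, edgeR adjusted p = 0.00171). The shares of channels and guidance genes called, in either direction, were 20.6% and 22.6%, against 14.6% over all genes.

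The calls between sexes of the remaining lists are to be read beside the 14.6% called over all genes (8.82% higher and 5.77% lower). Vesicle release and synaptic adhesion genes had 1 higher and 3 lower of 33, median log2 -0.13, AMPA receptor auxiliary and scaffold genes 1 higher and 3 lower of 23, median log2 -0.21, transcription factors 1 higher and 2 lower of 18, median log2 -0.13, and sublayer genes 1 higher and 2 lower of 13, median log2 -0.10. The shares called were 12.1%, 17.4%, 16.7% and 23.1% in this order. *Slc17a7* is counted among the vesicle release genes and *Cux2* and *Rorb* among the transcription factors, though the rule limited their UMIs. *Otof*, a sublayer gene, was lower in males, at log2 -0.73 (SE 0.16, edgeR adjusted p = 0.00725). *Calb1* was the sublayer gene called higher, at log2 0.58 (SE 0.18, edgeR adjusted p = 0.0459). The marker *Rasgrf2*, on CPM without TMM scaling, stood at 290, 303, 314 and 287 in the females and 191, 183, 226 and 267 in the males. The sexes did not overlap, so levels of these markers differed between the sexes. Interferon response genes had 1 higher and 0 lower of 8, median log2 -0.02, led by *B2m* at log2 0.79 (SE 0.22, edgeR adjusted p = 0.0235), interferon receptors and signalling 1 higher and 0 lower of 13, median log2 -0.10, and familial Parkinson disease genes 1 higher and 0 lower of 17, median log2 -0.02. GABA A subunits and metabotropic receptors had 0 calls by edgeR. At an unadjusted p under 0.05 there were 3 of 13 and 3 of 9 members, beside 3413 of 11594 over all genes.

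Other values were compared between the sexes, with a test only where a p-value is given. The share of mitochondrially encoded UMIs in layer 2/3 nuclei was 0.128%, 0.177%, 0.246% and 0.0972% in the females Wt F1, Wt F2, *Ifnar1*-/- F1 and *Ifnar1*-/- F2 and 0.353%, 0.518%, 0.391% and 0.764% in the males in the same order. Every male library was above every female one. The means were 0.162% and 0.506% (n = 4 each; two-sided exact permutation p = 0.0286, the smallest possible). Oligodendrocyte markers, 5 of 5 detected and led by *Mbp*, summed to 197, 112, 175 and 66.1 CPM in the females and 293, 191, 192 and 273 CPM in the males, and the sexes overlapped. GABAergic markers, 6 of 6 detected and led by *Sst*, summed to 28.4, 20.4, 23.6 and 27.3 CPM and 31.4, 152, 60.6 and 68.8 CPM. The sexes did not overlap in this sum, which includes *Gad1* and *Gad2*, whose UMIs the rule limited. Layer 6b markers, 3 of 3 detected, summed to 0.644, 0.444, 0 and 0.497 CPM in the females and 2.28, 6.70, 5.11 and 5.48 CPM in the males, again without overlap. Microglial markers, 5 of 5 detected and led by *P2ry12*, went the other way, also without overlap. They summed to 132, 131, 160 and 127 CPM in the females and 111, 125, 117 and 119 CPM in the males. The labels give no day of dissection or of nuclei isolation, so sex and any handling that differed between the sexes cannot be told apart, and the part of these values in the result was not tested. Between genotypes the same sums overlapped, with means of 198 CPM in Wt and 177 CPM in *Ifnar1*-/- for oligodendrocyte markers.

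**Figure D4:**
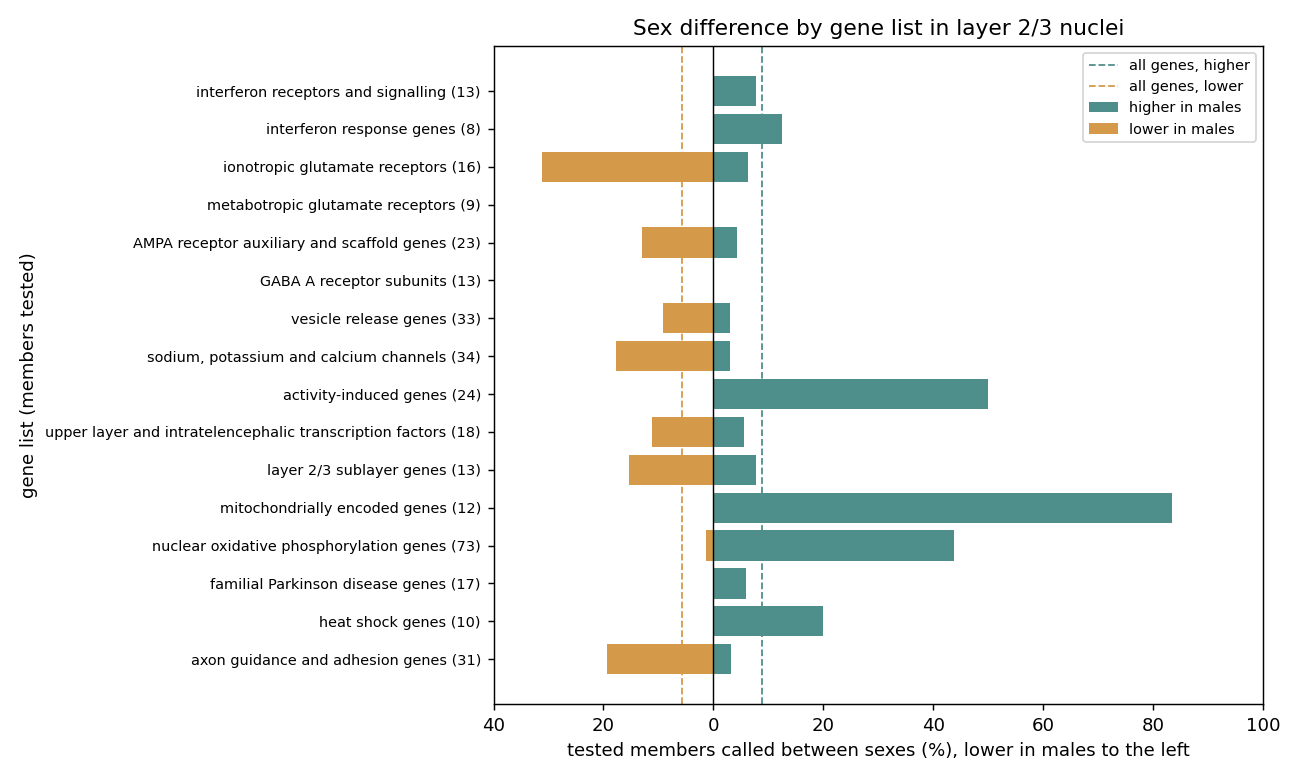
Percent of tested members of each gene list called between sexes in layer 2/3 nuclei, higher in males to the right and lower to the left, with the number tested in brackets and dashed lines at the shares over all genes (8.82% higher and 5.77% lower). Mitochondrially encoded, activity-induced and nuclear oxidative phosphorylation genes reached furthest to the right, with 10 of 12, 12 of 24 and 32 of 73 members. The transcription factor list includes Cux2 and Rorb, and the vesicle release list Slc17a7, which the selection rule used.

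The first principal component of the layer 2/3 sums (55.2% of variance) separated the sexes, and the next (18.4%) set *Ifnar1*-/- F1 apart. The test of whether the genotype difference differed between the sexes called 0 of 11594 genes (0%; edgeR, 258 at an unadjusted p under 0.05, and 0 by DESeq2), with 2 libraries per genotype and sex. With no filter on low counts it called 13 of 22607 genes. Within sexes the log2 ratio of mean CPM between genotypes was 1.09 between females and 0.69 between males for *Gon4l*, 1.62 between females and 1.94 between males for *Gm43713*, and -2.12 between females and -3.25 between males for *Prss48*. *Gm15965* had -0.94 between females and -1.55 between males, *Igfbp4* 1.76 between females and 1.36 between males and *Gm26848* 0.51 between females and 0.66 between males. Each of these 6 genes had the same direction in both sexes.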

How the data were processed

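The authors deposited Cell Ranger counts (3.1.0 by file headers, mm10) of barcodes called as nuclei from 8 cortices, and name Seurat 3.1.5. UMIs of layer 2/3 nuclei were summed per library and tested with edgeR 4.0.16 in R 4.3.3 (TMM, filterByExpr, sex and genotype terms), the procedure tested on simulated data; DESeq2 1.42.0 and Scrublet (scanpy 1.11.5) were alternatives. Populations were compared on sums with the library as a block. *Rorb*-high nuclei had at least 4 *Rorb* UMIs; the other population had at least 2 each of *Foxp2* and *Hs3st4* and at most 2 of *Cux2*. Named genes were those called between genotypes, the 10 smallest p between sexes, at most 5 per population comparison, and per list called members, the 2 most abundant and the smallest p, besides markers, *Ifnar1* and *Ifnar2*. Members and lists were chosen with earlier results known. Equal replicate labels correlated in deviations from genotype means (r = 0.37, 0.56, 0.55 and 0.36), but not within sex (-0.03 and -0.12). The labels F1 to M2 name no litter or day.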

Additional observations from a re-analysis of the deposited data

Results flagged for a closer look

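Within a genotype, 1 library lay far from the other 3 in 5 of 132 groups examined, where chance gives about 1 in 20. *Gm43713* had 358 CPM in *Ifnar1*-/- F1, against 209.6 to 225 CPM in the other *Ifnar1*-/- libraries. *Cacng4* had 0 CPM in the same library, against 9.82 to 11.3. *Prss48* had 60.2 CPM in Wt M1, against 27.0 to 29.5 in the other Wt libraries, and *Igfbp4* 17.3 CPM in Wt M2, against 7.57 to 8.84. *Gabrb1* had 849.8 CPM in *Ifnar1*-/- F2, against 767 to 771. The genotype difference differed between layer 2/3 nuclei and nuclei with *Foxp2* and *Hs3st4*, by the test of that difference, for *Igfbp4* (log2 1.06), *Cntfr* (1.15), *Gm12394* (-0.74), *Gm2163* (-0.67) and *4930578G10Rik* (-0.73).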

How the results depend on the processing

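Genes called between genotypes numbered 9, and 10 with DESeq2, 9 with RLE size factors, 9 with the replicate block, 10 and 6 with *Cux2* of at least 3 and 6, 9 with doublets removed, 5 with no sex term, 50 (32 higher, 18 lower) with no filter on low counts and 6 to 8 on leaving out each library. The replicate block ended the call of *Igfbp4* and changed no other call of a named gene between genotypes, while it called 1 gene that the main comparison did not. Calls between sexes numbered 1692, and 1115 with *Cux2* of at least 6 and 899 to 2127 on leaving out each library. With no filter on low counts, calls numbered 13 for the sex dependence of the genotype difference, and for the difference from other glutamatergic, *Rorb*-high, and *Foxp2* and *Hs3st4* nuclei 2, 5 and 20. On leaving out each library these counts were 0, 0 to 4, 0 to 2 and 4 to 8. The cause was not tested. The difference in share ranged from -1.94 to 0.251 percentage points and that in median UMIs from -2187 to 1087 UMIs on leaving out each library. Alternatives for the mean CPM of *Rasgrf2* and *Calb1* were chosen after seeing the data. Of 1208 alternative values of single genes, 1107 kept their direction and side of the threshold. The sign of the log2 fold change, between genotypes unless named, turned with DESeq2, *Tsix* -0.87; with no filter on low counts, *Gabrb1* -0.020 and *Dlg1* -0.013; with Scrublet doublets removed, *Ndufs4* -0.0034 and *Ddx3x* (sex) 0.019; with *Cux2* of at least 3, *Adar* 0.013, *Lrrtm4* 0.00094, *Irf2* -0.039, *Ndufs4* -0.0045, *Nr4a1* 0.049 and *Tcf4* 0.041; with *Cux2* of at least 6, *Tsix* -0.018, *Adar* 0.037, *Grin2b* -0.0076, *Grm5* -0.045, *Homer1* 0.012, *Ndufs4* -0.077, *Nr4a1* 0.17, *Dlg1* -0.041, *Epha6* -0.029 and *Ddx3x* (sex) 0.027; with no sex term, *Gabrb1* -0.00069, *Nr4a1* 0.029 and *Dlg1* -0.0055. None of these was called in the main comparison. On leaving out each library the sign turned in these ranges, *Adar* -0.075 to 0.038, *Dlg1* -0.038 to 0.063, *Epha6* -0.031 to 0.16, *Gabrb1* -0.042 to 0.055, *Grin2b* -0.028 to 0.11, *Grm5* -0.011 to 0.074, *Homer1* -0.26 to 0.078, *Hspa5* -0.33 to 0.17, *Irf2* -0.0080 to 0.11, *Lrrtm4* -0.10 to 0.030, *Ndufs4* -0.034 to 0.095, *Tcf4* -0.15 to 0.045, *Tsix* -0.093 to 0.43, *Xist* -0.32 to 0.14 and *mt-Atp6* -0.098 to 0.70. *Gm12576* could not be fitted with *Cux2* of at least 6, where it failed the filter.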
